A study of Rattus norvegicus with 12 samples.

Results

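The genes described here encode the subunits of respiratory complexes III, IV and V, the last part of the mitochondrial electron transport chain together with ATP synthase. They were chosen by name from a table of 34525 rat genes: every protein-coding gene whose symbol begins with Uqcr, Cox4 to Cox8 or Atp5, the gene Cyc1, and the CYTB, COX and ATP genes of the mitochondrial chromosome. The rule returned 50 genes, of which 44 are nuclear and 6 are mitochondrial. Complex III has 9 nuclear members and 1 mitochondrial member, complex IV has 19 and 3, and complex V has 16 and 2. Where a symbol stood on more than 1 row, the row of higher mean level was taken, which applied to Cox6b1 and Uqcrb. The gene for the gamma subunit of the F1 part was not among the rows that the rule returned and was not analysed here.

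The libraries came from rats of a study of chronic orofacial pain. RNA from the thalamus and from the rostral ventral medulla (RVM) was sequenced, with 12 libraries in 4 groups of 3. The saline groups, labelled CQ in the thalamus and CR in the RVM, received 0.9% NS, and the treated groups, labelled FQ and FR, received CFA, an abbreviation commonly read as complete Freund's adjuvant, which provokes inflammation. The labels give no strain, sex, age, dose, injection site or time after treatment, and do not say whether libraries of a group came from separate animals or whether the thalamus and RVM of one rat were both used, so the p-values measure the spread between these libraries, which may be technical. The extraction text in the labels speaks of retinas. The 5 photoreceptor markers summed to at most 0.732 FPKM in any library, while 8 thalamic neuron markers summed to 127 to 853 FPKM in the thalamus and 72.3 to 96.8 in the RVM, and 7 hindbrain markers to 112 to 147 FPKM in the RVM and at most 1.17 in the thalamus. FPKM is the number of fragments scaled to gene length and library size, so that levels of different genes can be set side by side. Library totals recovered from the table ran from 14944794 to 19243108 reads.

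Complex III, ubiquinol-cytochrome c reductase, passes electrons from ubiquinol to cytochrome c and pumps protons. Complex IV, cytochrome c oxidase, passes them on to oxygen, and complex V uses the proton gradient to make ATP. The catalytic cores of complexes III and IV and the proton channel of complex V are partly encoded by mitochondrial DNA, which is transcribed inside the organelle as long polycistronic RNA, while most subunits are nuclear genes translated in the cytosol and imported. Neurons draw most of their ATP from this chain, and the genome that encodes each subunit sets which transcription machinery makes its RNA.

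Nuclear subunit genes are known targets of the factors NRF1, GABPA (an ETS factor, also called NRF2) and YY1. The windows from 250 bases before to 50 bases after the annotated start, taken from RefSeq on build GRCr8, were found for 35 of the 44 nuclear members. The 3 shown are those of the nuclear members with the smallest p between the regions under saline. Capitals mark a match to CCGGAAGT (ETS) or GCATGCGC (NRF1 core) on either strand. All are written 5′ to 3′ on the gene's strand, which is the minus strand for each: Uqcrh chr5:134790833-134791132, Atp5po chr11:44657434-44657733 and Cox6a2 chr1:192219667-192219966.
Uqcrh: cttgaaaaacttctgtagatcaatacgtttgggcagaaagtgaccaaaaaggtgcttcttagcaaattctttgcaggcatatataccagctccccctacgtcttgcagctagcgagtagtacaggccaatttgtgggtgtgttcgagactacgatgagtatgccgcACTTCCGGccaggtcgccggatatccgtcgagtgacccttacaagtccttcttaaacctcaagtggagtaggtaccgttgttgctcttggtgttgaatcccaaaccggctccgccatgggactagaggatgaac
Atp5po: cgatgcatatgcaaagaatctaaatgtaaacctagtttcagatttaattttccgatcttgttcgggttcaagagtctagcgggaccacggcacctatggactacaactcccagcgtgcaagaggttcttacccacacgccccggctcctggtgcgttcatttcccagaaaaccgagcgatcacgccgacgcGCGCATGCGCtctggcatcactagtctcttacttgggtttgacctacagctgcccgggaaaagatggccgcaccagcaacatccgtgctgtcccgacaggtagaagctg
Cox6a2: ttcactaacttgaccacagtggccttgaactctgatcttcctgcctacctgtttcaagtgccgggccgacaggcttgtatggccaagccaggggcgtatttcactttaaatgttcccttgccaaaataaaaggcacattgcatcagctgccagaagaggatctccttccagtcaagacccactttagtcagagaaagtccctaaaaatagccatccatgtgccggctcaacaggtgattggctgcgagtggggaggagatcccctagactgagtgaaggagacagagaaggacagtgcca
The Uqcrh window held the ETS letters on the opposite strand, beginning 84 bases before the start. In the Atp5po window 2 overlapping NRF1 matches, 1 on each strand, began 59 and 57 bases before it. The Cox6a2 window held none of the 3 motifs searched, the third being AAGATGGCG (YY1).

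Among the 28 well-expressed nuclear members with a window, 12 held at least 1 of the 3 motifs (42.9%), against 7.53% of 33469 promoter windows of the same length. Those windows were not filtered by level or gene type, and no set matched to the members was searched. The NRF1 core stood in 5 of the 28 (17.9%, against 2.47% of all windows), the ETS letters in 5 (17.9%, against 3.81%) and the YY1 letters in 3 (10.7%, against 1.73%). Uqcrc1, a core protein of complex III, held both the NRF1 core and the YY1 letters. Of 7 members averaging at most 3.04 FPKM, 1 held a match, the testis-type Cox8c. A match describes the letters of the window and no binding was measured.

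The subunit genes fell into well separated levels. Averaged over the 12 libraries, 5 of the 6 mitochondrial members stood above every nuclear member: COX1 at 18818 FPKM, ATP6 at 18530, COX3 at 17692, COX2 at 13349 and CYTB at 7881. COX1, COX3 and ATP6 overlapped in their ranges over the libraries, and CYTB was the lowest of the 5 in each library. The remaining mitochondrial member, ATP8, which encodes a small membrane subunit of ATP synthase, averaged 167 FPKM. ATP8 lies at positions 7758 to 7961 of the mitochondrial chromosome and shares its end with ATP6 at 7919 to 8599, as the table gives them, and both are carried on one messenger RNA. The table's ATP6 level was 75.8 to 148 times that of ATP8 in single libraries. No source used here states how reads on the shared stretch were assigned, and the part of that assignment in the level of ATP8 was not tested.

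**Figure D1:**
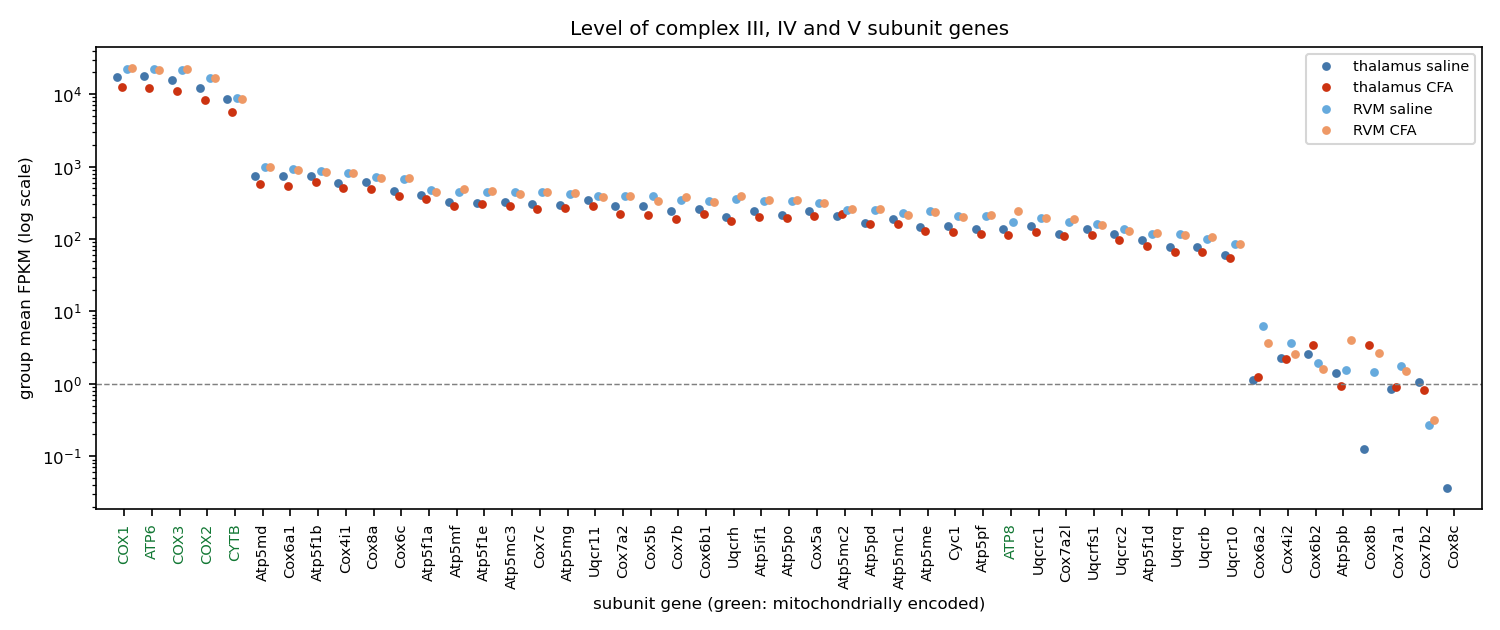
Group mean FPKM (vertical, log scale) of each subunit gene in order of its mean over 12 libraries, with 1 point per group of 3 libraries; mitochondrial genes are named in green. The 5 large mitochondrial genes lie above all nuclear genes, and the dashed line marks 1 FPKM. Below them lie 35 nuclear genes, and lower still the tissue-restricted forms and Atp5pb. Cox6c-ps1, listed at 0 in every library, and group means of 0 are not drawn.

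A gap divided the nuclear members. In 35 of them the mean ran from 71.1 FPKM for Uqcr10, a small complex III subunit, to 817 FPKM for Atp5md, a membrane subunit of ATP synthase, with a median of 280 FPKM. The other 9 averaged at most 3.04 FPKM. These 9 were the muscle, lung and testis forms of complex IV subunits (Cox4i2, Cox6a2, Cox6b2, Cox7a1, Cox7b2, Cox8b and Cox8c), the annotated pseudogene Cox6c-ps1, at 0 in all 12 libraries, and Atp5pb. Atp5pb encodes the b subunit of the peripheral stalk, and a gene of the same listed length on the same chromosome, LOC100911417, averaged 3.29 FPKM, and whether reads of the b subunit were divided between them was not tested.

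Where complex IV has a common and a tissue-restricted form, the common form made nearly all of the RNA. Cox4i1 stood at 681 FPKM and the lung and hypoxia form Cox4i2 at 2.69 FPKM, which was 0.261% to 0.556% of the pair in single libraries. Cox6a1 stood at 777 FPKM and the heart and muscle form Cox6a2 at 3.04, or 0.136% to 0.744% of the pair. Cox6b1 averaged 284 FPKM against 2.37 for Cox6b2, the testis form. Cox7a2 averaged 323 FPKM and Cox7a2l, which joins complex III to complex IV in supercomplexes, 147, against 1.26 for the muscle form Cox7a1. Cox8a averaged 627 FPKM against 1.91 for Cox8b, and Cox8c was read in 1 of 12 libraries, at 1 read. The 3 genes for the same c-ring protein of ATP synthase were all well expressed, Atp5mc3 at 366 FPKM, Atp5mc2 at 235 and Atp5mc1 at 197.

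In the thalamus 5 of the 6 mitochondrial members had larger differences between CFA and saline than any well-expressed nuclear member, and CYTB passed the test. CYTB encodes cytochrome b, the catalytic membrane subunit of complex III. Its level was 8333, 8673 and 8329 FPKM in the saline libraries and 5280, 5668 and 5789 FPKM in the CFA libraries. Every CFA library lay below every saline library, and the CFA libraries lay closer to each other than to any saline library. On the log2(FPKM + 1) scale the difference was -0.60 ± 0.12 (SE, n = 3 per group). The adjusted p was 0.0481 from limma over 14722 genes, and the mean FPKM was 33.9% lower. The library sizes that the authors divided by were 1.11 to 1.17 times the recovered reads in the CFA libraries. In the saline libraries they were 0.961 to 1.04 times, so the size of this difference depends on the scaling used. Which scaling is right was not tested. The share of all genes that passed as lower was 0.272%. The call of CYTB was lost when any 1 of the 6 libraries was left out, where the difference ran from -0.63 to -0.56. It held in 3 of 13 other alternatives, among which the difference ran from -0.60 to -0.12, the smallest under quantile normalization, and over both kinds the adjusted p ran from 0.00628 to 0.65.

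The 3 mitochondrial subunits of complex IV form its catalytic core. COX1, which holds the oxygen-binding centre, was 16703, 17964 and 17451 FPKM under saline and 11172, 12390 and 14123 under CFA. COX2, which accepts electrons from cytochrome c, was 11807, 12313 and 12249 FPKM under saline and 7322, 8386 and 9123 under CFA. COX3, a structural core subunit, was 15220, 16026 and 15043 FPKM under saline and 9771, 10856 and 12578 under CFA. In all 3 genes the CFA libraries lay below the saline libraries without overlap, and CFA library 1 was lowest and CFA library 3 highest. None of the 3 passed: the differences were -0.47 ± 0.15 for COX1 (adjusted p = 0.169), -0.56 ± 0.14 for COX2 (0.104) and -0.49 ± 0.15 for COX3 (0.164).

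The mitochondrial subunits of complex V parted from each other. ATP6, the proton channel subunit, was 18222, 17963 and 17168 FPKM under saline and 10391, 12480 and 13630 under CFA. The groups did not overlap, and the difference of -0.56 ± 0.16 did not pass (adjusted p = 0.135). ATP8 was 142, 153 and 116 FPKM under saline and 102, 113 and 130 under CFA. Its groups overlapped, with a difference of -0.25 ± 0.14 (adjusted p = 0.336). Over the 6 mitochondrial members, 5 had groups without overlap in the lower direction, against 16.8% of all genes.

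**Figure D2:**
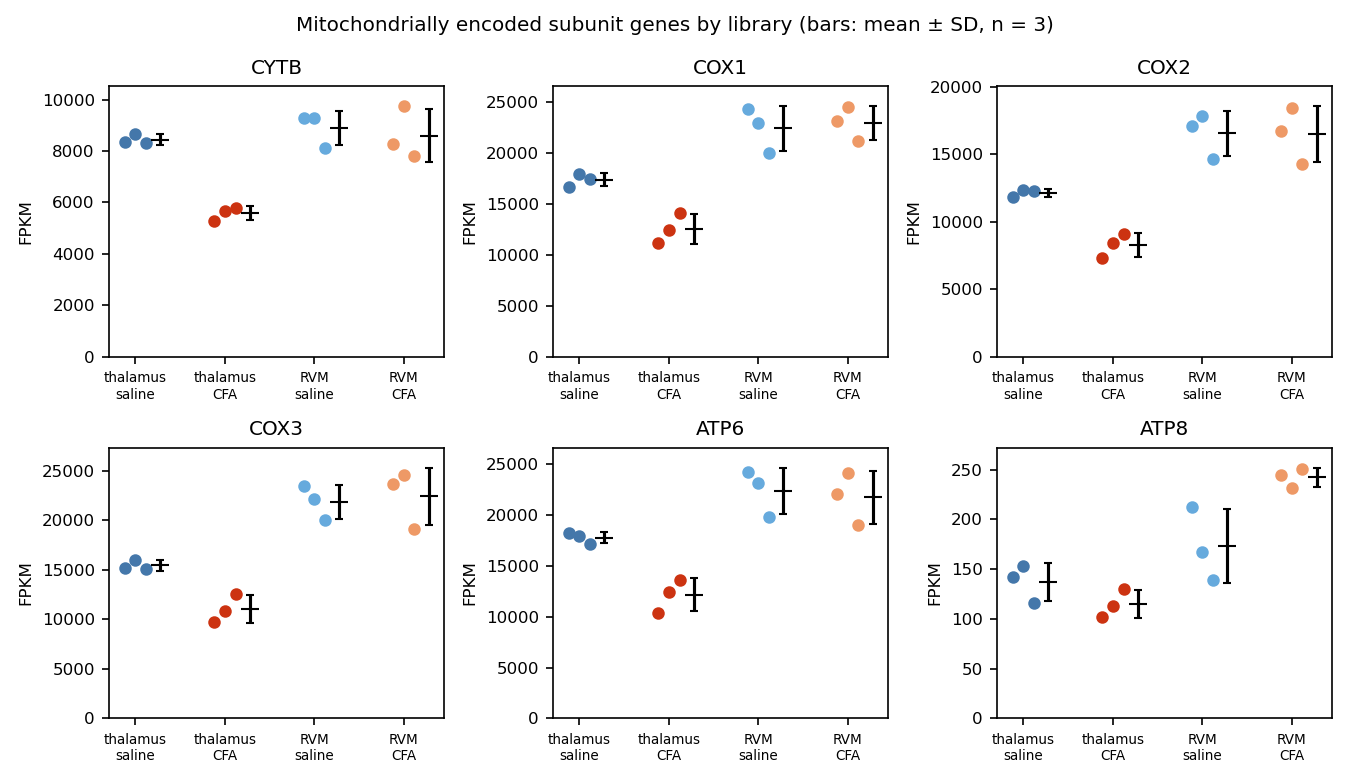
FPKM (vertical, from 0) of the 6 mitochondrial subunit genes in each of the 12 libraries; horizontal positions are the 4 groups, points are libraries 1, 2 and 3 from left to right, and bars are mean ± SD (n = 3). In the thalamus the CFA libraries lie below the saline libraries in each gene but ATP8, where they overlap, and in the RVM the groups overlap in each gene but ATP8, where the CFA libraries lie above.

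None of the 40 nuclear members tested in the thalamus passed, against 4.11% of all genes passing in either direction. Of these, 36 had a negative difference, against 60.5% of all genes, and the median was -0.22, against -0.08 over all genes and -0.52 over the mitochondrial members. The filter on level kept all 35 well-expressed members, whose median was -0.23, and 5 of the 9 with low listed levels. It left out Cox7a1, Cox7b2, Cox8c and Cox6c-ps1. In 18 of the 40 the CFA libraries all lay below the saline libraries, against 16.8% of all genes. Under scaling by 1 factor per library the nuclear median moved with that of all genes and stayed below it. With the same recovered total in each library the median of all genes moved to 0.08 and the nuclear median to -0.04, with 29 of 40 negative. The mitochondrial median moved to -0.34, with 6 of 6 negative. Under that scaling 1 of the 40 nuclear members had CFA libraries all below the saline libraries in place of 18, against 717 of 14722 genes, while 5 of the 6 mitochondrial members did. With mitochondrial genes left out of the total it was 2 of the 40, against 977 genes.

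The nuclear member nearest to passing was Cox6a1, a regulatory subunit of complex IV. It was 723, 741 and 745 FPKM under saline and 457, 564 and 601 under CFA. The groups did not overlap, with CFA library 1 farthest from the saline libraries, and the difference was -0.46 ± 0.13 (adjusted p = 0.127). Cox5b, another complex IV subunit, was 290, 252 and 305 FPKM under saline and 198, 238 and 207 under CFA, a difference of -0.39 ± 0.12 (adjusted p = 0.152). Cox7a2 was 284, 263 and 304 FPKM under saline and 202, 236 and 235 under CFA (-0.34 ± 0.11, adjusted p = 0.165). These 2 also did not overlap.

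By role, the differences of the well-expressed nuclear members in the thalamus lay close together. In complex III the 9 nuclear members ran from -0.29 for Cyc1, cytochrome c1, to -0.15 for Uqcr10. In complex IV the 10 common structural subunits ran from -0.46 for Cox6a1 to -0.20 for Cox6c, and the supercomplex factor Cox7a2l stood at -0.09. In complex V the catalytic head stood at -0.22 for Atp5f1a and -0.29 for Atp5f1b, and the inhibitor Atp5if1, which blocks ATP hydrolysis by the synthase, at -0.30. The smallest were Atp5f1e of the central stalk at -0.03 and Atp5pd of the peripheral stalk at -0.05. Atp5mc2, of the c-ring, was the only well-expressed member with a positive difference, 0.10 ± 0.10 (adjusted p = 0.555), and it gave 28.2% to 30.3% of the summed c-ring gene FPKM under saline and 31.3% to 36.6% under CFA. None of these passed the test.

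**Figure D3:**
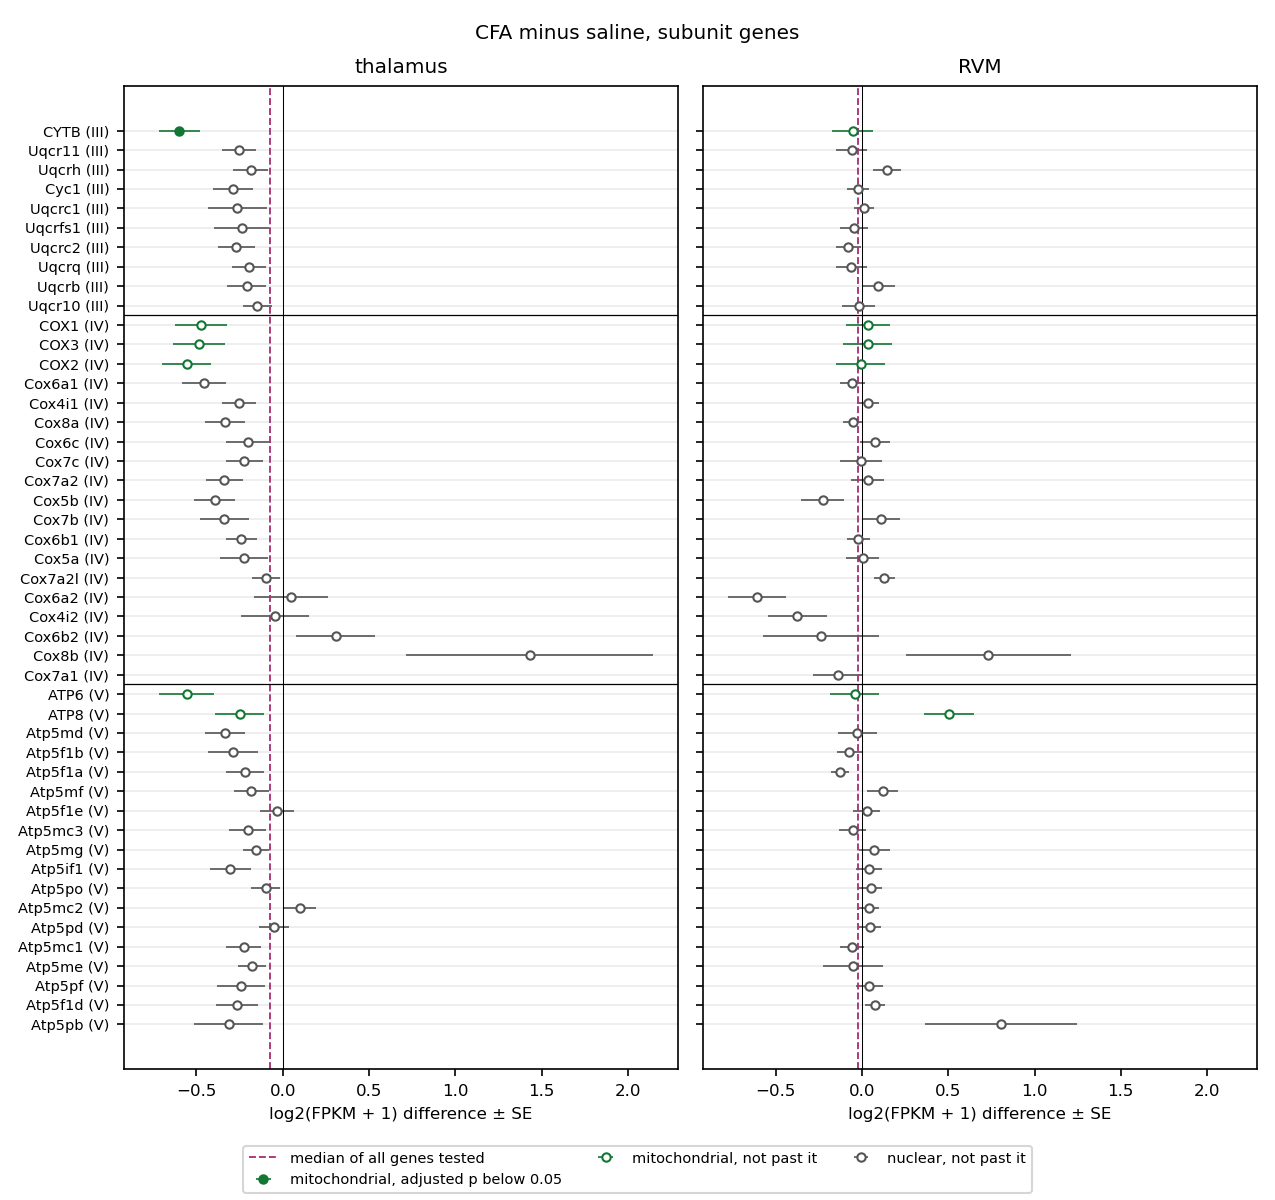
Difference between CFA and saline on the log2(FPKM + 1) scale (horizontal, ± SE) for each subunit gene that passed the level filter, in the thalamus (left) and RVM (right); filled points passed adjusted p below 0.05 and the dashed line is the median of all genes tested. In the thalamus the green mitochondrial genes lie at -0.60 to -0.25 and CYTB is the only filled point, and in the RVM no point is filled.

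The ratio of mitochondrial to nuclear subunit RNA was compared within each library, which a common scaling factor cannot move. The summed FPKM of the 6 mitochondrial members was 7.37, 7.46 and 6.66 times that of the 44 nuclear members in the thalamus saline libraries and 5.62, 5.87 and 6.25 times in the thalamus CFA libraries. In the RVM it was 7.49, 6.74 and 6.53 under saline and 7.35, 7.08 and 6.38 under CFA. The 3 thalamus CFA libraries had the lowest ratios of the 12, although the highest of them, 6.25, lay near the lowest RVM value, 6.38. In the thalamus the mitochondrial sum averaged 71291 ± 1559 FPKM (SD, n = 3) under saline and 49768 ± 5668 under CFA, and the nuclear sum 9973 ± 524 and 8395 ± 518. As a share of recovered reads the nuclear members overlapped between groups, at 0.719% to 0.791% under saline and 0.682% to 0.747% under CFA. The mitochondrial members did not overlap, at 6.76% to 7.06% and 5.03% to 5.97%.

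Taken complex by complex, the ratio in the thalamus averaged 6.46 ± 0.48 under saline and 5.03 ± 0.05 under CFA for complex III (SD, n = 3), 10.9 ± 0.63 and 9.51 ± 0.56 for complex IV, and 3.97 ± 0.34 and 3.11 ± 0.23 for complex V. For complexes III, IV and V alike the CFA ratios lay below the saline ratios in every library. The difference between the mitochondrial and the nuclear median was -0.30 on the log2 scale. It kept that value, to 2 decimals, under each scaling by 1 factor per library, and it was 0.01 under quantile normalization. That method gives every library the same set of values, so genes that stay in the top ranks, such as COX1 and ATP6, have little room to differ.

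**Figure D4:**
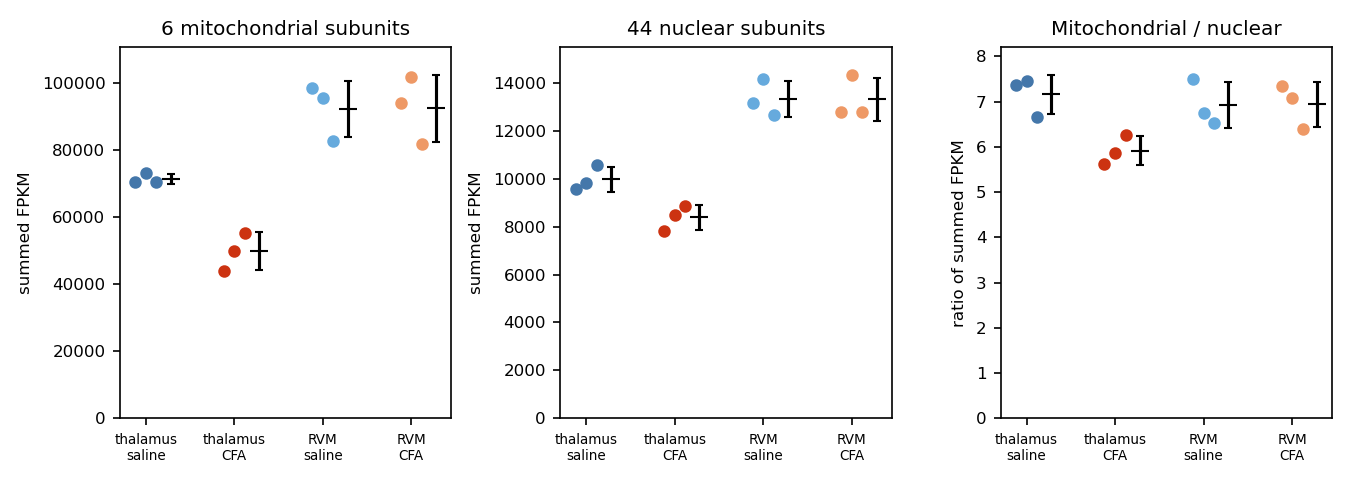
Summed FPKM of the 6 mitochondrial (left) and 44 nuclear (middle) subunit genes and their ratio (right) in each library, by group; points are libraries 1, 2 and 3 from left to right and bars are mean ± SD (n = 3). The thalamus CFA libraries are lowest in all 3 panels, at ratios of 5.62 to 6.25.

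Other transcripts moved with the thalamus CFA group. The summed FPKM of 10 choroid plexus markers was 56.0 to 87.4 under saline and 10979, 2687 and 62.8 in CFA libraries 1, 2 and 3. None of the 10 was at 0 in all libraries of either thalamus group. The 8 neuronal markers summed to 1485 to 2188 FPKM under saline and 1066 to 1608 under CFA, and all 8 had negative differences of which none passed. The 8 thalamic neuron markers summed to 353, 853 and 722 FPKM under saline and 127, 485 and 409 under CFA, groups that overlapped, and all 8 had negative differences, at a median of -1.01, of which none passed. The 6 microglial markers summed to 72.6 to 81.4 FPKM under saline and 215 to 252 under CFA. All 6 had positive differences, of which 5 passed. In bulk tissue fewer cells of a type and less RNA per cell cannot be told apart, and the part of these cell types in the differences above was not tested. With CFA libraries 1 and 2 left out together, 1 CFA library stood against 3, the mitochondrial median was -0.34 and the nuclear median -0.13, and no member passed.

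The RVM libraries showed another picture for the same genes. None of the 14289 genes tested passed there (0% called) under limma, with 2030 at an unadjusted p below 0.05, among them 2 members. The median difference between CFA and saline was -0.01 over 41 nuclear members, 21 of them negative against 56.1% of all genes, and 0.01 over the 6 mitochondrial members, against -0.02 over all genes. CYTB was 9296, 9268 and 8135 FPKM under saline and 8268, 9745 and 7786 under CFA, and COX1 was 24280, 22883 and 20026 and then 23117, 24496 and 21205. In both the groups overlapped, with differences of -0.05 ± 0.12 and 0.04 ± 0.13.

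The 3 members with the smallest p in the RVM were a low-level complex IV subunit, ATP8 and the alpha subunit of the F1 head. Cox6a2 was 7.02, 7.09 and 4.45 FPKM under saline and 3.27, 3.90 and 3.79 under CFA, groups that did not overlap (-0.61 ± 0.17, adjusted p = 0.247). ATP8 was 213, 167 and 139 FPKM under saline and 245, 232 and 251 under CFA, again without overlap but in the other direction (0.51 ± 0.14, adjusted p = 0.254). Atp5f1a was 463, 487 and 483 FPKM under saline and 420, 453 and 441 under CFA, and the difference of -0.13 ± 0.05 did not pass (adjusted p = 0.357). CFA lay above saline without overlap in 7.27% of all genes and below it in 12.5%. The RVM CFA libraries were unlike in microglial markers, which summed to 258, 100 and 207 FPKM, and with library 2 left out 484 genes passed but no member did.

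The difference of the CFA effects between the regions was tested directly. No gene of 13738 passed (0% called), with 1560 at an unadjusted p below 0.05. Thalamus minus RVM, the effect differed by a median of -0.53 over the mitochondrial members, -0.22 over 40 nuclear members and -0.05 over all genes. The members with the smallest p were CYTB (-0.55 ± 0.16), ATP8 (-0.76 ± 0.22) and COX2 (-0.55 ± 0.19), with adjusted p of 0.346, 0.346 and 0.382. The effect of CFA on these genes was therefore not shown to differ between thalamus and RVM.

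More members passed between the regions than between the treatments. In the saline libraries 29 of 40 nuclear members were lower in the thalamus than in the RVM and none was higher, against 22.7% of all genes passing as lower and 22.6% as higher. In 35 of the 40 the thalamus libraries all lay below the RVM libraries, against 29.9% of all genes. The nuclear median was -0.44, against -0.02 over all genes. Of the 6 mitochondrial members 3 passed, COX1 (-0.36 ± 0.12, adjusted p = 0.046), COX2 (-0.44 ± 0.12, 0.0204) and COX3 (-0.50 ± 0.11, 0.0119), all lower in the thalamus. COX1 lost its call in 5 of the 6 fits that left out 1 library, all but that without RVM library 3, COX2 lost it without thalamus library 3 or RVM library 1 or 2, and COX3 without RVM library 1 (-0.45, adjusted p = 0.0557). CYTB stood apart from them: at 8333, 8673 and 8329 FPKM in the thalamus and 9296, 9268 and 8135 in the RVM its groups overlapped, and its difference of -0.07 ± 0.10 turned to 0.01 with the same recovered total per library and to 0.41 under quantile normalization, where it passed as higher (adjusted p = 0.0024).

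The member with the largest regional difference and the smallest p was Cox6a2, the heart and muscle form of a complex IV subunit. It was 1.27, 1.05 and 1.02 FPKM in the thalamus under saline and 7.02, 7.09 and 4.45 FPKM in the RVM. These levels rest on few reads, 12, 8 and 8 in the thalamus and 54, 47 and 35 in the RVM. Every RVM library lay well above every thalamus library, and the difference was -1.74 ± 0.18 (adjusted p = 0.000662). Its common partner Cox6a1 was 723 to 745 FPKM in the thalamus and 881 to 981 in the RVM, a difference of -0.34 ± 0.07 (adjusted p = 0.00902). Cox6a2 RNA was 0.136% to 0.175% of the pair in the thalamus and 0.502% to 0.744% in the RVM. The 5 skeletal and heart muscle markers summed to 7.26 to 9.74 FPKM in the thalamus saline libraries and 7.05 to 8.49 in those of the RVM. Cox7a1, another muscle form, was also lower in the thalamus, at 0.584 to 1.01 FPKM against 1.63 to 1.94 (-0.59 ± 0.16, adjusted p = 0.0227).

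Uqcrh, the hinge protein of complex III that helps cytochrome c1 pass its electron on, had the largest regional difference of the well-expressed members. It was 189, 193 and 222 FPKM in the thalamus under saline and 356, 370 and 329 in the RVM. The groups were far apart, and the difference was -0.80 ± 0.09 (adjusted p = 0.000826). Under CFA it was 167, 175 and 188 FPKM in the thalamus and 391, 421 and 357 in the RVM, a difference of -1.13 ± 0.09 (adjusted p = 0.00088). Uqcrh stood at 1.19 to 1.56 times the core protein gene Uqcrc1 in the thalamus libraries and 1.72 to 2.10 times in the RVM libraries. The other nuclear complex III subunits differed less, from -0.63 ± 0.11 for Uqcrq (adjusted p = 0.0055) to -0.20 ± 0.09 for Uqcr11 (0.111).

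In complex V, 3 of the 4 genes of the peripheral stalk, which holds the catalytic head still while the rotor turns, were lower in the thalamus. Atp5po, the stalk subunit named for oligomycin sensitivity, was 202, 212 and 222 FPKM in the thalamus under saline and 328, 347 and 315 in the RVM (-0.64 ± 0.07, adjusted p = 0.000851). Atp5pd was 168, 161 and 176 FPKM against 257, 267 and 234 (-0.58 ± 0.08, adjusted p = 0.00152). Atp5pf differed by -0.57 ± 0.10 (adjusted p = 0.00413). In each of these the groups were without overlap. The low-level stalk gene Atp5pb did not pass (-0.08, adjusted p = 0.72). The catalytic head genes did not pass: Atp5f1a was 372, 429 and 431 FPKM against 463, 487 and 483 (-0.22 ± 0.08, adjusted p = 0.063), and Atp5f1b differed by -0.25 ± 0.11 (adjusted p = 0.0986). The difference between stalk and head genes was itself not tested.

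The 4 nuclear accessory subunits that shape the membrane part of complex V, among them those that let the enzyme form dimers, all passed. Atp5mg was 294, 297 and 298 FPKM in the thalamus and 404, 449 and 392 in the RVM (-0.48 ± 0.07, adjusted p = 0.00262), and Atp5me, Atp5mf and Atp5md ran from -0.71 to -0.44. The mitochondrial accessory subunit ATP8 did not pass (-0.32, adjusted p = 0.177). The thalamus libraries of Atp5mg were nearly equal and stood apart from all RVM libraries. The 3 c-ring genes passed too, at -0.44 for Atp5mc3, -0.27 for Atp5mc2 and -0.26 for Atp5mc1. In complex IV, Cox7a2l was 119, 110 and 121 FPKM against 180, 177 and 160 (-0.56 ± 0.08, adjusted p = 0.00172), and 8 of 10 common structural subunits passed, with Cox8a and Cox5a the exceptions. The calls of Cox6a2, Uqcrh, Atp5po, Atp5pd, Cox7a2l and Atp5mg held in every alternative in which they were tested.

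In the CFA libraries, which share none with the saline comparison, 35 of 41 nuclear members and all 6 mitochondrial members were lower in the thalamus, against 18.1% of all genes passing as lower and 14.9% as higher. In 36 and 6 of them the libraries of the regions did not overlap, against 27.3% of all genes. The nuclear median was -0.68 and the mitochondrial median -0.93, against -0.0024 over all genes. With the same recovered total per library, under which 3745 genes passed as higher and 1506 as lower in place of 2206 and 2674, the median of all genes was 0.18, the nuclear median -0.47 with 29 passing and the mitochondrial median -0.72 with 6 passing. Under quantile normalization CYTB, COX1 and ATP6 turned to 0.25, 0.02 and 0.10, and 1 mitochondrial member passed. Of the 35 well-expressed nuclear members, Atp5mc2 (-0.22 ± 0.09, adjusted p = 0.114) was the only one that did not pass.

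The mitochondrial member with the smallest p between the regions under CFA was ATP8, at 102, 113 and 130 FPKM in the thalamus and 245, 232 and 251 in the RVM. The lowest RVM library lay far above the highest thalamus library, and the difference was -1.08 ± 0.10 (adjusted p = 0.00134). COX2 and COX3 differed by -0.99 ± 0.17 and -1.02 ± 0.18 (adjusted p = 0.00687 and 0.00788), COX1 by -0.87 ± 0.16 (0.0095), ATP6 by -0.84 ± 0.18 (0.0151) and CYTB by -0.62 ± 0.14 (0.0175). Left out singly, thalamus library 2, RVM library 1 and RVM library 2 each ended the call of CYTB, and RVM library 1 that of ATP6 (-0.83, adjusted p = 0.0627). Without thalamus CFA libraries 1 and 2 the mitochondrial median was -0.76 and 1 of the 6 passed.

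Among the nuclear members under CFA, the smallest p values after Uqcrh belonged to Cox7a2l, Uqcrq, Atp5po and Uqcr10. Cox7a2l was 112, 108 and 108 FPKM in the thalamus and 189, 183 and 193 in the RVM (-0.78 ± 0.07, adjusted p = 0.00101). Uqcrq, a small structural subunit of complex III, was 64.3, 67.0 and 67.5 FPKM against 117, 112 and 110 (-0.76 ± 0.07, adjusted p = 0.00115). Uqcr10 was 55.3, 55.3 and 52.3 FPKM against 82.5, 85.4 and 84.3 (-0.62 ± 0.07, adjusted p = 0.00184). In each the thalamus libraries were closely grouped and far below the RVM libraries. Atp5po differed by -0.79 ± 0.08 (adjusted p = 0.0017). Cox6a2 remained lower in the thalamus, at 0.776, 1.11 and 1.77 FPKM against 3.27, 3.90 and 3.79 (-1.09 ± 0.19, adjusted p = 0.00809).

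**Figure D5:**
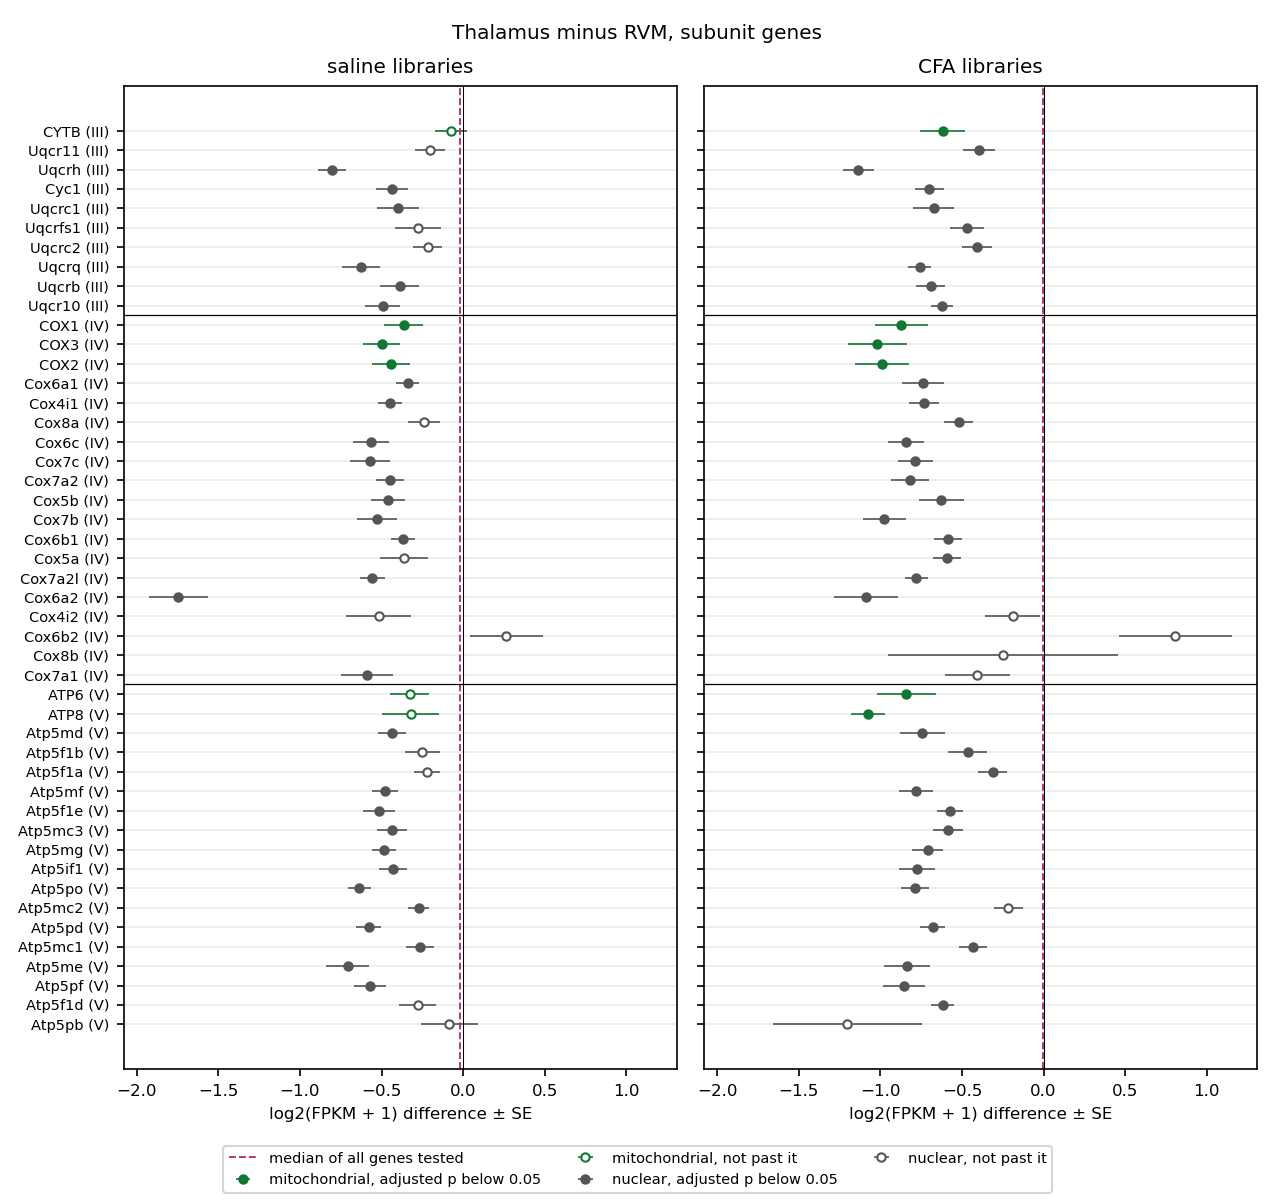
Difference between thalamus and RVM on the log2(FPKM + 1) scale (horizontal, ± SE) for each subunit gene that passed the level filter, in the saline libraries (left) and the CFA libraries (right); filled points passed adjusted p below 0.05 and the dashed line is the median of all genes tested. Points lie to the left of the dashed line for all but Cox6b2, and Cox6a2 and Uqcrh lie farthest left among the filled points.

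The regions also differed in the RNA of cell type markers. Oligodendrocyte markers summed to 4688 to 7323 FPKM in the thalamus saline libraries and 22315 to 25359 in those of the RVM, and all 6 were lower in the thalamus in both treatments. The 8 neuronal markers summed to 1485 to 2188 FPKM and 3095 to 3677, and 6 astrocyte markers to 1400 to 1838 and 3387 to 3658. Single markers did not all follow these sums: under saline 3 of the 8 neuronal markers were higher in the thalamus and 4 lower, and 4 of the 6 astrocyte markers were lower while the other 2 had positive differences that did not pass. None of these 3 lists had a marker at 0 in all libraries of a group. Their part in the regional differences of the subunit genes was not tested.

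The mitochondrial members kept their proportions to each other only in part. CYTB stood at 0.477 to 0.499 of COX1 in the thalamus saline libraries, 0.410 to 0.473 in the thalamus CFA libraries, 0.383 to 0.406 in the RVM saline libraries and 0.358 to 0.398 in the RVM CFA libraries. Each thalamus library therefore lay above each RVM library in this ratio. COX3 stood at 0.862 to 0.911 of COX1 in the 6 thalamus libraries and 0.903 to 1.02 in the 6 RVM libraries. The ratio of ATP6 to COX1 was 0.896 to 1.09 over the 12 libraries with the groups overlapping. The 7 mitochondrial ND genes of complex I, transcribed from the same genome, had a median CFA difference of -0.57 in the thalamus, with 7 of 7 negative and none passing, and 0.11 in the RVM.

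Low-level members varied within groups. Cox8b, a muscle form, was 0, 0 and 0.379 FPKM in the thalamus saline libraries and 8.91, 0.738 and 0.566 in the thalamus CFA libraries, of which library 1 alone stood high. That library also had the highest choroid plexus sum. In the RVM Cox8b ran from 0 to 3.58 FPKM, and it passed in no comparison. Atp5pb was 1.44, 1.67 and 1.52 FPKM in the RVM saline libraries and 1.05, 5.54 and 5.53 in the RVM CFA libraries, while LOC100911417, of the same length, reached 8.85 and 18.0 FPKM in library 2 of the 2 thalamus groups and stayed at most at 0.780 in the other thalamus libraries. Cox7b2 had 0 to 5 reads per library. The rows of Uqcrb and Cox6b1 that were not taken averaged 36.1 and 82.7 FPKM, and for each symbol the reads could be divided between copies.

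The genes that build and serve these complexes were read from the same fits. None of the genes in 8 lists of such genes, the ND genes included, passed between CFA and saline in either region. The counts between the regions under saline stand against 22.7% of all genes passing as lower and 22.6% as higher, and some of the shorter lists have counts near those shares. Under saline, 9 of 20 complex IV assembly genes were lower in the thalamus and 2 higher, with Cox17, which carries copper to the oxidase, at -0.72 ± 0.07 (adjusted p = 0.000651) and Pet100 at -0.70 ± 0.11 (0.00347). Of the 4 complex II genes and Cycs, which encodes cytochrome c, 4 of 5 were lower, among them Sdhd (-0.61 ± 0.08, adjusted p = 0.00139) and Cycs (-0.35 ± 0.08, 0.0106). Of 7 carrier and porin genes 5 were lower, led by the adenine nucleotide carrier Slc25a4 (-0.52 ± 0.09, adjusted p = 0.00362). Of 5 complex V assembly genes 2 were lower, and of 6 complex III assembly genes Uqcc3 was lower (-0.51 ± 0.08, adjusted p = 0.00273) and Ttc19 higher (1.15 ± 0.20, 0.00485).

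Genes that make or keep mitochondrial RNA were mixed. Of 24 tested, 9 were lower in the thalamus and 3 higher under saline, against 22.7% and 22.6% of all genes, with Tfam, which packages mitochondrial DNA and starts its transcription, at -0.38 ± 0.07 (adjusted p = 0.00666) and the poly(A) polymerase Mtpap at 0.47 ± 0.08 (0.00522). Of 10 nuclear regulators of respiration genes, 4 were higher in the thalamus under saline and none lower, against the same shares of all genes, and 3 of the 10 had negative differences. The 4 that passed as higher were Pprc1 (0.69 ± 0.10, adjusted p = 0.00229), Ppargc1b (0.94 ± 0.15, 0.0029), Ppargc1a (0.56 ± 0.14, 0.0178) and Yy1 (0.22 ± 0.06, 0.0228). Under CFA 3 of 10 were higher, against 14.9% of all genes, and Esrra was lower (-0.38 ± 0.09, adjusted p = 0.0189), against 18.1%.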

How the data were processed

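The authors deposited 1 table of FPKM per gene for 12 libraries, with gene length, coordinates and biotype, per the file headers. Total RNA was extracted with Trizol and made into libraries with an Illumina TruSeq RNA kit, per the labels' protocols. For the aligner, the counter and the genome build, nothing is given in the sources used here. The FPKM values times gene length are whole multiples of 1 step in each library, within 0.01, which gave relative reads and the library totals. The authors' divisor was 0.933 to 1.17 times that total, highest in the thalamus CFA libraries (1.11 to 1.17), so scaling was varied. Differences were tested with limma 3.58.1 (R 4.3.3; lmFit and eBayes with a mean-variance trend, two-sided) on log2(FPKM + 1), over genes averaging 1 FPKM or more in the libraries compared (for the interaction, in each region), with Benjamini-Hochberg adjustment over all genes and a threshold of 0.05. Fits used 6 libraries (4 residual degrees of freedom), or 12 for the interaction. A fold change on this scale understates that of low genes. The fit was also run on simulated counts with known changes and the same dispersion for all genes. Those counts had no outlying libraries, so the run does not show how the fit behaves with them. RVM stands for the rostral ventral medulla, and signs are CFA minus saline or thalamus minus RVM.

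The members and gene lists were chosen with earlier results of these data known, so no list was given a test of its own. Named members are all mitochondrial ones, up to 6 of smallest p per direction in each comparison (3 where fewer than 3 passed), the paralogues and the extremes of level; of other lists, up to 4 of smallest p. Other members and marker genes were named after their values were seen. Replicate numbers were not taken to pair libraries. Correlations of same-numbered deviations ran from -0.04 to 0.36 over all pairs of groups. Between thalamus saline and thalamus CFA they were all positive, 0.06 to 0.36, against -0.45 to 0.31 for different numbers. Whether libraries are paired by number there was not settled, and with the replicate block 1338 genes passed in place of 605. Alternatives covered scaling, quantile normalization, pseudocount 0.1, level filters, limma-voom on the recovered reads, robust variances, the replicate block, a model of all 12 libraries and leaving libraries out.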

Additional observations from a re-analysis of the deposited data

How the results depend on the processing

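Between CFA and saline in the thalamus, mitochondrial members passing numbered 0 under the same recovered total, the same total without mitochondrial genes, median-of-ratios scaling, quantile normalization, pseudocount 0.1, no filter, limma-voom, the replicate block, without CFA libraries 1 and 2 and without both libraries numbered 1. They numbered 2 with a filter at 5 FPKM and 5 in the model of all 12 libraries, where 2 nuclear members and 1932 genes passed. Genes passing were 605 in the fit described, 298 with the filter at 5 FPKM, 1338 with the replicate block and 66 without CFA libraries 1 and 2 (1 CFA library against 3, its spread assumed like the others'), where the mitochondrial median was -0.34. The nuclear and mitochondrial medians were -0.045 and -0.34 under the same total, -0.079 and -0.38 under the same total without mitochondrial genes, and -0.10 and -0.092 under quantile normalization, where they differed by 0.012. Leaving out 1 library gave 309 to 547 genes, 0 members, nuclear medians of -0.27 to -0.17 and mitochondrial medians of -0.60 to -0.42.

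In the RVM 1 gene passed with no filter, and leaving out 1 library gave 0 to 484 genes, nuclear medians of -0.05 to 0.06 and mitochondrial medians of -0.07 to 0.09. For the interaction 11 genes passed with no filter, 146 without both thalamus libraries numbered 1 and 0 to 15 with 1 library left out. Its nuclear median was -0.087 under the same total, and -0.087 under quantile normalization with a mitochondrial median of -0.14 (apart by -0.057). Its mitochondrial median was -0.37 without CFA libraries 1 and 2. With 1 library left out the nuclear and mitochondrial medians ran from -0.26 to -0.16 and -0.62 to -0.45. COX1 and ATP6 turned to 0.014 and 0.073 under quantile normalization.

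Between the regions under saline, quantile normalization gave 18 nuclear members and 1 mitochondrial member, the latter CYTB as higher, with medians of -0.21 and 0, apart by 0.21. CYTB turned to 0.41 and ATP6 to 0.033 there, and CYTB to 0.0081 under the same total. No mitochondrial member passed with no filter. Leaving out 1 library gave 4855 to 7154 genes, 23 to 31 nuclear and 0 to 4 mitochondrial members, medians of -0.49 to -0.39 and -0.45 to -0.29, and a gap of 0.03 to 0.16. Under CFA the nuclear and mitochondrial medians were -0.47 and -0.72 under the same total, -0.54 and -0.79 without mitochondrial genes in the total, and -0.37 and -0.10 under quantile normalization (apart by 0.27), with 21 nuclear and 1 mitochondrial members. CYTB, COX1 and ATP6 turned to 0.25, 0.019 and 0.097. One mitochondrial member passed with no filter, and 1 without CFA libraries 1 and 2, at a median of -0.76. Leaving out 1 library gave 2906 to 5418 genes, 29 to 36 nuclear and 4 to 6 mitochondrial members, medians of -0.72 to -0.63 and -1.01 to -0.85. Quantile normalization gives every library the same set of values by construction, and the cause of these changes was not tested. Of the values that answer a comparison, 498 stayed within set limits and 72 moved beyond them. The limit was 1.5 times for a count and the spread between replicates (0.104 to 0.141 on the log2 scale) for a median. Direction was not part of this rule. With the replicate block between CFA and saline in the thalamus, 583 genes passed as lower in place of 40 and 755 as higher in place of 565, and 20 nuclear members in place of 11 had an unadjusted p below 0.05. In the other comparisons the block moved no count of genes or members passing by over 1.5 times. Depth limits the low members, such as Cox7b2 with 0 to 5 reads per library.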
